A study of Bos taurus with 28 samples.

Results

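FBP1, PC and PCK1 encode enzymes of gluconeogenesis, the pathway by which liver makes glucose, at steps that it does not share with glycolysis. They were chosen by symbol from the array platform's annotation (NCBI Gene IDs 513483, 338471 and 282855) and make up 3 of the 6958 genes that could be tested. Each was represented by 1 probe, printed as 2 neighbouring spots, and each gave a ratio at both spots on 28 of 28 arrays. All 3 therefore had a value in each of the 14 cows, and none was lost to a filter on missing values. The duplicate spots of an array differed by a median of 0.34 (log2) for FBP1, 0.13 for PC and 0.20 for PCK1.

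The study compared liver RNA of multiparous Holstein cows in early lactation, 7 with ketosis brought on by underfeeding and 7 healthy. All cows had been found healthy on day 4 after calving and were allotted to the groups at random. The ketotic cows then received 50% of what they had eaten on day 4, from day 5 by the design text and from day 4 by the sample labels, until clinical signs appeared or day 14 came; no restriction is given for the healthy cows. The sources used here do not give the day of liver sampling. Each liver RNA was hybridised to 2 cDNA arrays with the dyes exchanged, against a common reference RNA pooled from cattle tissues. Cows are called by group and a number that only names them, and do not pair cows across groups.

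As background, PC (pyruvate carboxylase) makes oxaloacetate from pyruvate in the mitochondrion, PCK1 (the cytosolic phosphoenolpyruvate carboxykinase) turns oxaloacetate into phosphoenolpyruvate, and FBP1 (fructose bisphosphatase) removes a phosphate from fructose bisphosphate near the end of the pathway. Lactate and alanine enter through PC, whereas propionate, the main glucose precursor of ruminants, reaches oxaloacetate without it. Ruminants absorb little glucose from the gut, so the liver of a fresh dairy cow makes nearly all the glucose that goes into milk lactose.

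Values are log2 ratios of liver over reference, a direction that is likely and not stated in the labels, with each array centred on its median. The median gene was lower in the ketotic cows by 0.18 on this scale (difference -0.18), and calls were mostly falls: 0.92% of the 6958 genes were higher and 12.4% lower at a limma adjusted p below 0.05. Hepatocyte markers were far above the reference, as were the 3 enzymes. Healthy cow 7 stood apart from the other 13 cows. Its array with liver in Cy5 had a median correlation of 0.230 with the other cows' arrays, and its Cy3 array one of 0.437, against 0.560 or more for each array of the other cows. The results of the 3 enzymes are therefore given with and without this cow; without it, 1.5% of 6878 genes were higher and 18.4% lower, and the median difference was -0.19.

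FBP1 rose in ketotic liver. In the healthy cows its log2 ratio had a lowest value of 1.74, a median of 4.30 and a highest of 5.11; in the ketotic cows it ran from 5.37 over a median of 5.96 to 6.21. Each of the 7 ketotic cows lay above each healthy cow, and the lowest healthy value was that of cow 7, with the next at 4.15. Of the 5240 genes with a value in all 14 cows, 0.344% showed such a gap in this direction.

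The FBP1 mean of the ketotic cows was 5.80 ± 0.31 (SD, n = 7) and that of the healthy cows 4.12 ± 1.12 (SD, n = 7), a difference of 1.68 (SE 0.40, 95% interval 0.83 to 2.53), or 3.20-fold (1.78 to 5.77). The limma adjusted p over all genes was 0.0147, and the exact two-sided permutation p over cows was 0.000583, the smallest that 7 against 7 cows can give. By size it was the 8th largest rise of the 6958 genes, and the 21st of 6878 without healthy cow 7. By limma p, over both directions, it ranked 339th and 62nd. With healthy cow 7 left out the healthy mean was 4.51 ± 0.45 (SD, n = 6), the difference 1.28 (SE 0.20, 95% interval 0.85 to 1.72) or 2.44-fold, the limma adjusted p 0.00161 and the exact permutation p 0.000583. The ketotic and healthy cows still did not overlap, as was so for 0.511% of the 5671 genes with a value in these 13 cows. Leaving out that cow made the difference smaller and its standard error smaller too.

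The FBP1 call was lost when every array was scaled to one spread of log2 ratios (difference 0.73, limma adjusted p 0.325; without healthy cow 7, 0.34 and 0.372), a setting in which the ketotic arrays, which had the wider spread, were compressed. It was also lost with the share of spots without a ratio as a covariate (1.29, adjusted p 0.146) or the per-cow spread as one (1.03, adjusted p 0.372). The difference stayed above 0 in 38 of 38 alternative settings. Of these, 14 left out 1 cow, which cannot turn the sign where the groups do not overlap. Several others reused the same cow values and gave the same difference of 1.68.

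PC, the only one of the 3 enzymes that works solely in the mitochondrion, had higher ratios in most ketotic cows, but its difference passed the threshold only when healthy cow 7, or ketotic cow 7, was left out or under the settings named at the end. Healthy values had a lowest of 0.88, a median of 2.49 and a highest of 2.95; ketotic values had a lowest of 2.43, a median of 3.14 and a highest of 3.52. In 6 of 7 ketotic cows PC was above the highest healthy value; the exception was ketotic cow 7, at 2.43 with the next ketotic cow at 3.05. That cow had the highest FBP1 value of all 14, 6.21.

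For PC the ketotic mean was 3.11 ± 0.34 (SD, n = 7) and the healthy mean 2.33 ± 0.68 (SD, n = 7), a difference of 0.79 (SE 0.27, 95% interval 0.21 to 1.37) or 1.73-fold, with a limma adjusted p of 0.0685 and an exact permutation p of 0.00641. Without healthy cow 7, whose PC ratio of 0.88 lay well under the next healthy value of 2.24, the difference was 0.55 (SE 0.17, 95% interval 0.17 to 0.92) or 1.46-fold, with a limma adjusted p of 0.0404 and an exact permutation p of 0.0128. Without ketotic cow 7 it was 0.90 with a limma adjusted p of 0.0487. Leaving out healthy cow 7 thus made the PC difference smaller but the healthy SD too, from 0.68 to 0.27 (n = 6).

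PCK1 did not pass the test. Healthy values had a lowest of 4.27, a median of 5.99 and a highest of 7.36, and ketotic values a lowest of 6.22, a median of 6.50 and a highest of 7.24. The ketotic cows lay within the upper part of the healthy range: 7 of 7 were above the healthy median and 0 of 7 above the highest healthy cow.

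The mean PCK1 ratio was 6.62 ± 0.34 (SD, n = 7) under ketosis and 6.02 ± 0.99 (SD, n = 7) in health, a difference of 0.60 (SE 0.36, 95% interval -0.17 to 1.37) with a limma adjusted p of 0.294 and an exact permutation p of 0.153. Over the 13 other cows the difference was 0.31 (SE 0.27, 95% interval -0.26 to 0.89), the limma adjusted p 0.449 and the exact permutation p 0.306. These intervals allow anything from a small fall to a 2.59-fold rise with all cows, and up to 1.85-fold without cow 7. Its sign was not stable: with arrays scaled to one spread it was -0.68 (adjusted p 0.248), and -0.89 (adjusted p 0.0447) when healthy cow 7 was left out as well.

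**Figure D1:**
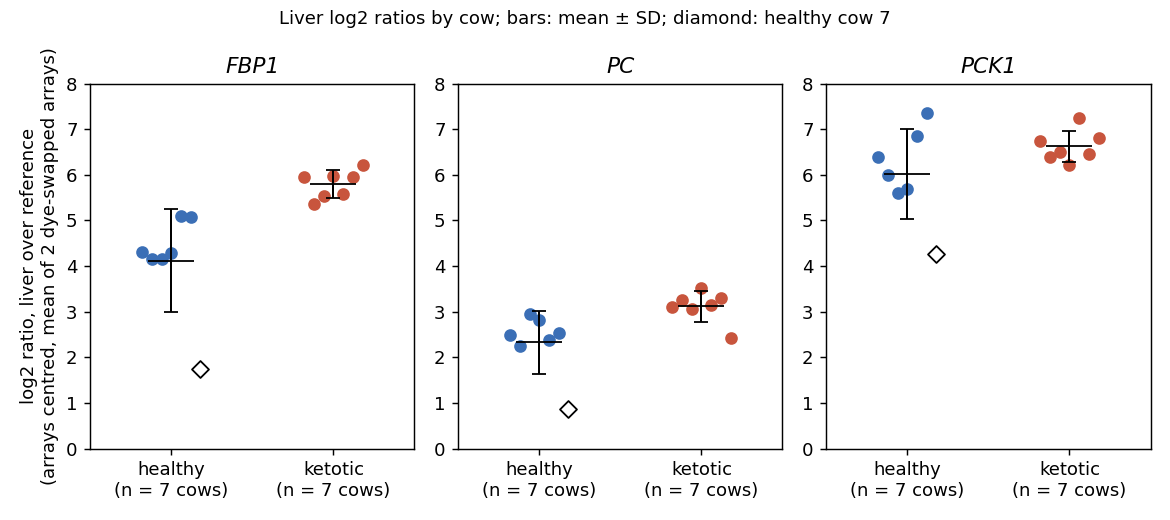
Log2 ratio of liver over reference (vertical axis) of FBP1, PC and PCK1 in each cow, with healthy cows in blue, ketotic cows in red, healthy cow 7 as an open diamond, and lines for the group mean ± SD (n = 7 cows per group). The ketotic FBP1 values sit between 5.37 and 6.21, above every healthy cow, whereas the PCK1 values of the groups overlap.

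Whether the enzymes changed by different amounts was tested within cows, by subtracting one gene's log2 ratio from another's in the same cow. The centring of the arrays cancels in such a difference, so it does not depend on which genes set the zero. The absolute level of such a difference depends on the probes and has no reading; only its change between groups does. The 3 pairs were compared, with exact permutation p-values adjusted over the pairs.

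FBP1 changed more than PCK1. FBP1 less PCK1 ran from -2.53 to -1.40 in the healthy and from -1.66 to -0.25 in the ketotic cows, with 1 ketotic cow inside the healthy range. The change of FBP1 exceeded that of PCK1 by 1.08 (SE 0.24, 95% interval 0.56 to 1.59; exact permutation p 0.00175, adjusted 0.00524), and by 0.97 (SE 0.23; exact permutation p 0.00291, adjusted 0.00874) without healthy cow 7. It passed in each of the 7 other settings run for the pairs (array centring cannot change it). The values ran from 0.69 with liver in Cy3 alone to 1.46 with liver in Cy5 alone. It also passed with each of the 14 cows left out in turn (0.97 to 1.21). Covariate fits and single dyes without healthy cow 7 were among the settings not run for the pairs.

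FBP1 also changed more than PC with all cows, by 0.89 (SE 0.33, 95% interval 0.18 to 1.60; exact permutation p 0.0181, adjusted 0.0271). Within cows FBP1 less PC ran from 0.87 to 2.73 in the healthy and from 2.10 to 3.79 in the ketotic group, the highest being ketotic cow 7. This call rested on single cows: it was 0.74 (adjusted exact permutation p 0.0507) without healthy cow 7 and 0.71 (0.0559) without ketotic cow 7. The changes of PC and PCK1 differed by 0.18, with a 95% interval from -0.62 to 0.99 (exact permutation p 0.621), which allows a difference either way. With arrays scaled to one spread that difference was 0.94 (adjusted exact permutation p 0.0201).

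**Figure D2:**
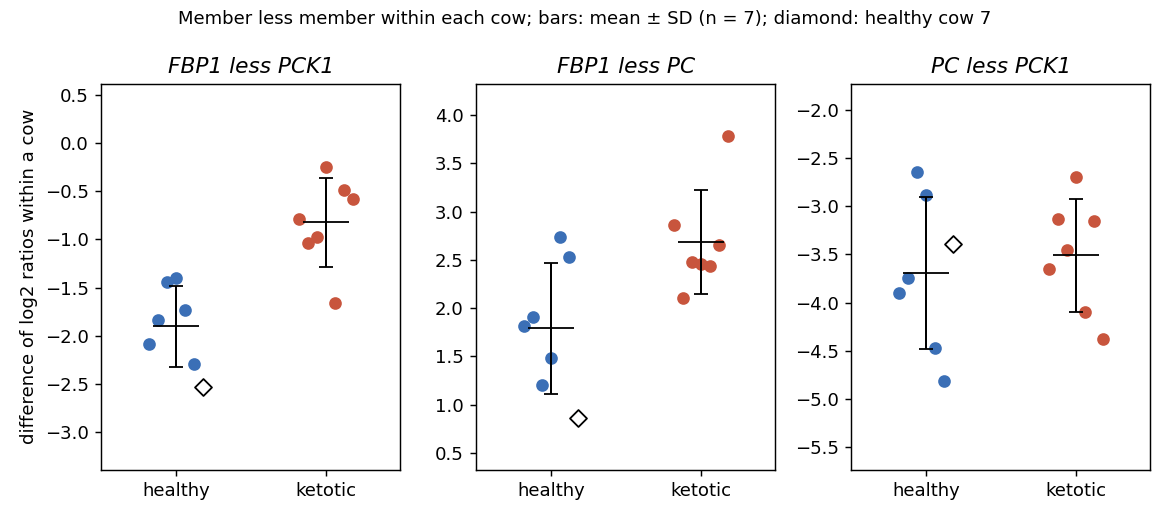
Difference of log2 ratios between members within each cow (vertical axis; healthy cows blue, ketotic red, healthy cow 7 as a diamond, lines for mean ± SD, n = 7 per group). FBP1 less PCK1 shifted up by 1.08 in the ketotic cows, FBP1 less PC by 0.89 and PC less PCK1 by 0.18; only the shift between groups can be read, not the level.

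The arrays with exchanged dyes repeat each measurement on the same RNA. FBP1 was higher in the ketotic cows in both orientations: the difference was 1.38 with liver in Cy3 (limma adjusted p 0.0104) and 1.98 with liver in Cy5 (adjusted p 0.131). In the Cy3 arrays 9.28% of genes passed in either direction, and in the Cy5 arrays 0.157%. When healthy cow 7 was left out the FBP1 differences were 1.24 (adjusted p 0.00954) and 1.33 (adjusted p 0.0436), where 14.9% and 2.69% of genes passed.

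PC differed by 0.62 in Cy3 (limma adjusted p 0.114) and 0.96 in Cy5 (0.199), and without healthy cow 7 by 0.52 (0.147) and 0.58 (0.0781). PC thus leaned the same way in both orientations and passed in neither alone. PCK1 differed by 0.68 in Cy3 (limma adjusted p 0.285) and 0.53 in Cy5 (0.661), and without healthy cow 7 by 0.63 (0.335) and -0.0019 (0.998). With that cow left out the PCK1 means of the groups thus nearly coincided in Cy5. The gap between the orientations was compared between the groups, and no difference passed for FBP1, PC or PCK1 (exact permutation p 0.436, 0.368 and 0.798). Without healthy cow 7 the groups differed in the PCK1 gap by -0.63 (exact permutation p 0.170). Whether the orientations themselves differ was not tested.

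Healthy cow 7 was low for all 3 enzymes mainly on its Cy5 array. There FBP1 was 0.48 against 3.01 on its Cy3 array, PC 0.060 against 1.69, and PCK1 3.31 against 5.23. In the other 6 healthy cows the Cy5 value was above the Cy3 value for FBP1 and PCK1 in each cow, by 0.91 to 1.51 and by 0.71 to 1.79. Ketotic cow 5 also had the reverse order, with Cy5 less Cy3 at -0.52 for FBP1 and -0.90 for PCK1. With healthy cow 7 taken from its Cy3 array alone, the difference was 1.50 for FBP1 (limma adjusted p 0.00481), 0.67 for PC (0.0449) and 0.47 for PCK1 (0.324).

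**Figure D3:**
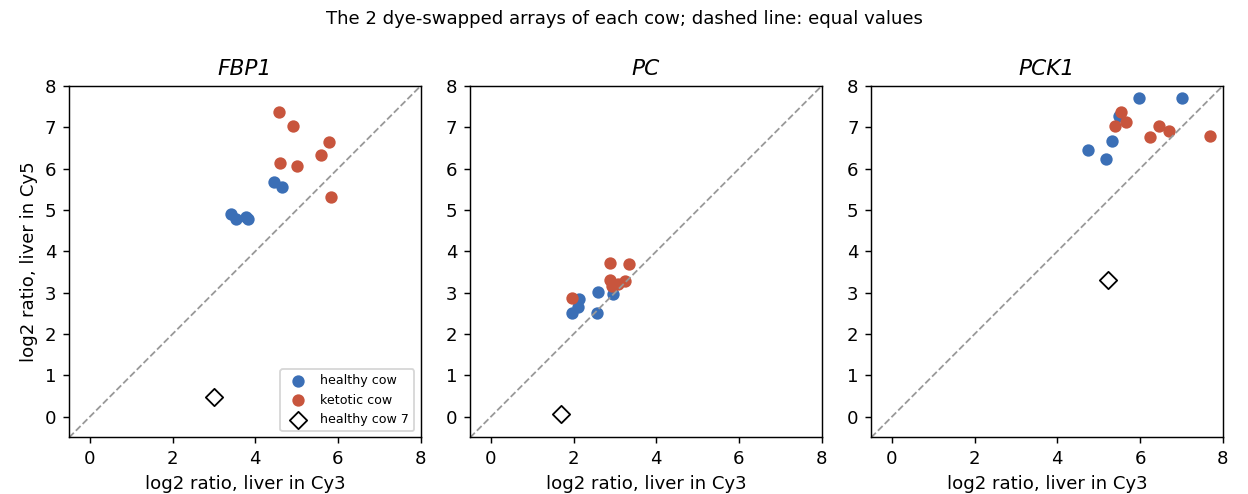
Log2 ratio on the array with liver in Cy3 (horizontal axis) against that with liver in Cy5 (vertical axis) for each cow, with healthy cows in blue, ketotic cows in red and healthy cow 7 as a diamond; the dashed line marks equal values. Most cows lie above the line, whereas healthy cow 7 lies far below it for all 3 genes, at 0.48 in Cy5 against 3.01 in Cy3 for FBP1.

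In the rest of the pathway no gene passed as a rise with all 14 cows, though PC (0.79) and PCK1 (0.60) leaned upward. Of 20 listed gluconeogenesis genes, 16 could be tested: 1 rose (FBP1), 7 fell and 8 did not pass, with a median difference of -0.51 beside -0.18 over all genes. Of all genes tested, 0.92% were higher and 12.4% lower. FBP2, G6PC1 (the liver's main glucose phosphatase) and MDH1 were among the genes not analysed here. Without healthy cow 7, 2 rose (FBP1 and PC) and 8 fell, beside 1.5% higher and 18.4% lower over all genes.

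Among the enzymes of steps that gluconeogenesis does not share with glycolysis, 6 were tested. PCK2, the mitochondrial counterpart of PCK1, differed by -0.16 (SE 0.28, limma adjusted p 0.768), and SLC37A4, the transporter that carries glucose phosphate into the endoplasmic reticulum, by -0.15 (SE 0.38, adjusted p 0.841). With healthy cow 7 left out and arrays centred as before, PCK2 differed by -0.36 (adjusted p 0.250) and SLC37A4 by -0.50 (adjusted p 0.131). Without that cow both passed as falls on other scales: PCK2 with values as deposited (-0.81, adjusted p 0.0122) or one spread (-0.70, 0.0250), and SLC37A4 as deposited (-0.95, 0.00614), with one spread (-1.10, 0.00133) or with quantile normalisation (-0.76, 0.00605). G6PC3, the glucose phosphatase found in most tissues, fell by 0.57 (difference -0.57, SE 0.17, adjusted p 0.0352), a call lost in 5 of the 14 fits that left out 1 cow: healthy cow 1 (-0.57, adjusted p 0.0575), healthy cow 6 (-0.49, 0.0729), ketotic cow 2 (-0.58, 0.0534), ketotic cow 5 (-0.53, 0.0631) and ketotic cow 7 (-0.53, 0.0700). It was also lost in 13 of 24 other settings, among them shared-probe centring (-0.44, adjusted p 0.104), one spread (-0.38, 0.196) and quantile normalisation (-0.40, 0.172).

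Most of the reversible enzymes that gluconeogenesis shares with glycolysis or the malate and aspartate shuttle fell. Of 10 tested, 6 fell and 0 rose, with a median difference of -0.83 (7 fell and a median of -0.74 without healthy cow 7). Over all genes 12.4% fell, and 18.4% without that cow. The differences were negative for 10 of 10 as centred here, beside 67.2% of all genes. With arrays scaled to one spread they were negative for 9 of 10, and 2 fell. With liver in Cy5 alone, with the per-cow spread as a covariate, or relative to hepatocyte markers 0 fell. In those settings few of all genes passed, 12 of 7633 with Cy5 alone. GPI (glucose phosphate isomerase) fell 2.15-fold (difference -1.10, SE 0.19, adjusted p 0.00336), PGAM1 (phosphoglycerate mutase) 2.10-fold (-1.07, adjusted p 0.00308), TPI1 (triose phosphate isomerase) 2.03-fold (-1.02, adjusted p 0.00654) and ENO1 (enolase) 1.93-fold (-0.94, adjusted p 0.00732). In each of these 4 genes 7 of 7 ketotic cows lay below the healthy mean, the reverse of FBP1. The calls of GPI, PGAM1, TPI1 and ENO1 were lost in 3, 4, 6 and 7 of 24 other settings.

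PGK1 (phosphoglycerate kinase; -0.94, adjusted p 0.0126) and MDH2 (mitochondrial malate dehydrogenase; -0.72, adjusted p 0.0106) made up the 6. GAPDH (-0.46, adjusted p 0.125), ALDOA (-0.30, 0.394), GOT1 (-0.60, 0.241) and GOT2 (-0.43, 0.244) did not pass. Without healthy cow 7 GOT2, the mitochondrial aspartate aminotransferase, passed as well (-0.60, adjusted p 0.0334).

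**Figure D4:**
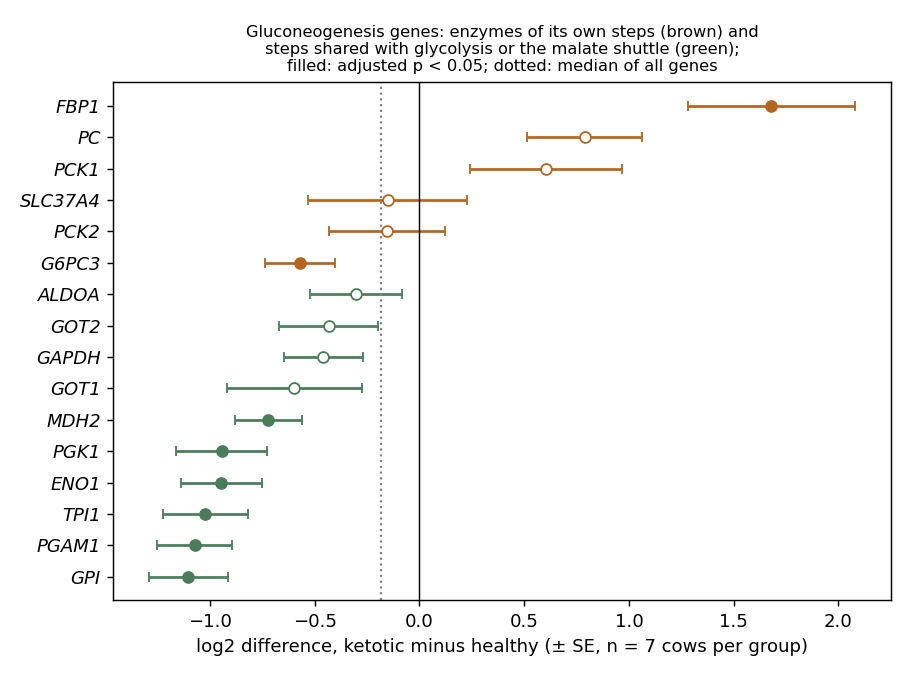
Log2 difference, ketotic minus healthy (horizontal axis, ± SE, n = 7 cows per group), of the 16 tested gluconeogenesis genes, with enzymes of its own steps in brown and shared steps in green; filled points passed at an adjusted p below 0.05 and the dotted line marks the median of all genes, -0.18. FBP1 at 1.68 is the only filled point to the right of 0, and 7 filled points lie to the left.

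Genes that feed or oppose the pathway gave 3 falls and 0 rises, to be read beside the 12.4% of all genes that were lower and the 0.92% that were higher. Of 16 tested genes for the entry of propionate, lactate, alanine and glycerol, 0 rose and 1 fell (median difference -0.15): MPC2, a subunit of the mitochondrial pyruvate carrier that supplies PC, fell 1.76-fold (difference -0.81, SE 0.20, limma adjusted p 0.0152), a call lost in 5 of 24 other settings. MMUT (methylmalonyl-CoA mutase), of the propionate route, had a difference of 0.43 (adjusted p 0.668) and GK (glycerol kinase) one of 0.75 (adjusted p 0.143). Of 14 tested genes of the opposing steps of glycolysis and pyruvate oxidation, 0 rose and 2 fell (median -0.23). PDHB, a subunit of pyruvate dehydrogenase, fell 1.73-fold (-0.79, adjusted p 0.0197), a call lost in 8 of 23 other settings, both single dyes among them (adjusted p 0.0875 in Cy3 and 0.115 in Cy5). PDK3, a kinase that inactivates that enzyme, was measured in 5 ketotic cows and fell 2.34-fold (-1.23, adjusted p 0.0334), a call lost without healthy cow 3 (adjusted p 0.0585) or healthy cow 5 (0.0556) and in 13 of 23 other settings.

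PC carries biotin, and of the 6 tested biotin enzymes and handling genes none passed with all cows (0 rose, 0 fell, median -0.28); the smallest p was that of ACACA, the acetyl-CoA carboxylase of fat synthesis (-0.78, limma adjusted p 0.0564). Without healthy cow 7, PC rose and ACACA (-0.81, adjusted p 0.0446) and MCCC1 (-0.59, adjusted p 0.0314) fell. Of all genes, 1.5% were then higher and 18.4% lower. ACACA passed in 6 of 24 other settings and PC in 5. With all cows MCCC1 differed by -0.35 (adjusted p 0.432).

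Of 23 tested hormonal and transcriptional regulators of gluconeogenesis, 0 rose and 2 fell (median -0.09), beside 12.4% lower over all genes. PPARGC1A, a coactivator of the PCK1 gene, differed by 0.44 (SE 0.25, limma adjusted p 0.279), and GCGR, the glucagon receptor, by 0.41 (adjusted p 0.646). ATF2, a transcription factor, fell (-0.70, adjusted p 0.0295), as did PRKAB1, a subunit of AMP-activated kinase (-0.52, adjusted p 0.0491). The ATF2 call was lost in 4 of the 14 fits without 1 cow (healthy cow 6 and ketotic cows 2, 5 and 7; adjusted p at most 0.0586) and that of PRKAB1 in 11 (at most 0.0925). Other settings ended the ATF2 call in 13 of 24, such as quantile normalisation (-0.54, adjusted p 0.121), and the PRKAB1 call in 17 of 24. Of 9 tested glycogen genes, 0 rose and 2 fell (median -0.09), PHKB and PGM1. PHKB, a phosphorylase kinase subunit (-0.72, adjusted p 0.0119), was lost in 9 of 24 other settings, both single dyes among them. PGM1, phosphoglucomutase (-0.73, adjusted p 0.0365), was lost in 9 of 14 fits without 1 cow (adjusted p at most 0.0724) and in 7 of 24 other settings.

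Markers of hepatocytes, the cells that hold these enzymes, moved in part with FBP1. Of 15 tested, 2 rose, beside 0.92% of all genes, and 0 fell, beside 12.4%, with a median difference of 0.59. The 2 were ALB (albumin, 3.06-fold, limma adjusted p 0.0228) and APOA1 (apolipoprotein A-I, 1.82-fold, adjusted p 0.0208). These calls were lost in 9 and 14 of 24 other settings. When healthy cow 7 was left out, 2 rose, APOB (apolipoprotein B) fell (-1.44, adjusted p 0.0412), and the median was 0.14. Of all genes, 1.5% were then higher and 18.4% lower. The median over the 14 markers measured in each cow ran from 3.48 to 7.28 in the healthy and from 5.45 to 6.90 in the ketotic cows, with healthy cow 7 the lowest and the next at 5.24. The groups overlapped in these markers, unlike in FBP1. In bulk liver fewer cells of a type and less RNA per cell cannot be told apart.

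Relative to that marker median in the same cow, FBP1 was still higher in the ketotic cows, by 1.07 (exact permutation p 0.00175), and by 1.06 (exact permutation p 0.00233) without healthy cow 7. In the fit over all genes on that scale its limma adjusted p was 0.246, and 3 genes passed in all. PC differed by 0.18 (exact permutation p 0.696; 0.32 and 0.515 without healthy cow 7) and PCK1 by -0.0032 (0.988; 0.086 and 0.682). Of the 3 enzymes, FBP1 alone had an exact permutation p below 0.05 on this scale. PC values were spread more widely on it (SD 0.73 ketotic, 1.01 healthy) than as centred (0.34 and 0.68). A PC difference could thus pass less readily here, and the part of hepatocyte content was not tested.

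Markers of other liver cells gave 3 falls among 8 macrophage genes (median -0.51; CD74, LAPTM5 and AIF1), 1 rise (CD79B) and 1 fall (GNLY) among 5 lymphocyte genes, 1 rise (MMP9) among 4 neutrophil genes, and 1 fall (KRT8) among 6 bile duct genes. These counts stand beside 0.92% higher and 12.4% lower over all genes. None of 10 stellate cell and fibroblast genes, 7 endothelial genes, 2 blood genes, 2 kidney cortex genes, 1 adipocyte gene or 1 skeletal muscle gene passed. The stellate cell and fibroblast genes nevertheless had a median of -0.89 (-0.58 without healthy cow 7). The highest ketotic value was under the healthy median for COL1A2 (-4.95 against -4.91) and THY1 (-2.38 against -2.05). It was above that median for COL3A1 (-2.52 against -2.80), SPARC (-3.07 against -3.12) and DCN (-0.97 against -1.01). The differences of COL1A1 (0.14) and FBLN1 (0.12) were positive. The healthy mean of COL1A2, -3.90, lay above its healthy median of -4.91. Its difference went from -1.54 to -0.82 (limma adjusted p 0.301) without healthy cow 7. That of COL3A1 went from -1.10 to -0.55, and that of TIMP1 from -0.27 to 0.21. DCN, the matrix proteoglycan decorin, passed as a fall without healthy cow 7 (-0.61, adjusted p 0.0409). The ketotic arrays also had more spots without a ratio (12.2 to 25.0% of spots per cow, against 9.19 to 16.6%) and a wider spread of log2 ratios (median absolute deviation 1.17 to 1.69, against 0.979 to 1.32). The part of these measures in the FBP1 difference was not tested beyond the covariate fits above.

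**Figure D5:**
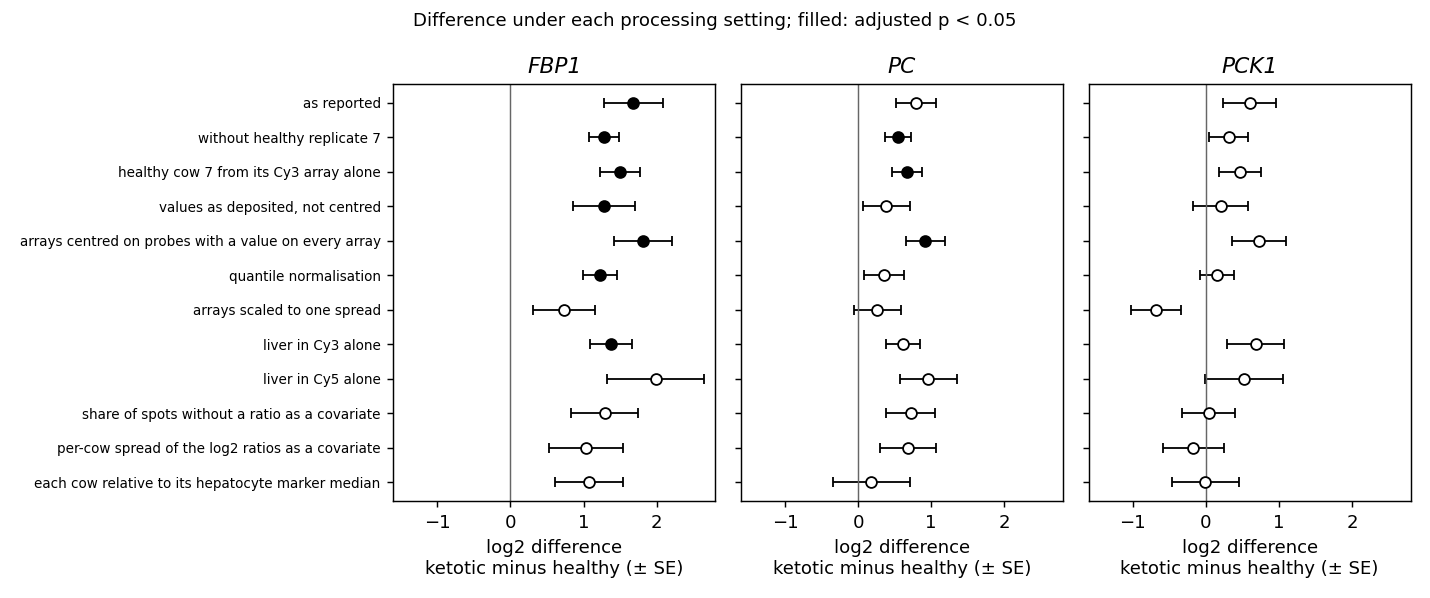
Log2 difference, ketotic minus healthy (horizontal axis, ± SE), of FBP1, PC and PCK1 under the reported processing and 11 alternatives (rows); filled points passed at a limma adjusted p below 0.05. FBP1 lies right of 0 in each row, from 0.73 to 1.98, whereas PCK1 changes side with arrays scaled to one spread, at -0.68. PCK1 also lies left of 0 with the per-cow spread as a covariate and, at -0.0032, relative to the hepatocyte marker median.

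The genes whose log2 ratio followed each enzyme most closely over cows were found among 5239 genes with a value in all 14 cows, by Pearson's r; they are descriptions, chosen as the highest of many. For PCK1 they were the same 3 genes with and without healthy cow 7: APOA5, an apolipoprotein (r 0.965 over 14 cows, 0.919 over 13), SERPINA3-3, a serpin (0.952 and 0.926), and F10, coagulation factor X (0.950 and 0.893). None of the 3 passed the test between groups (limma adjusted p 0.223, 0.143 and 0.514). For PC they were KCNC4, PADI3 and CNPY4 over 14 cows (r 0.942, 0.923 and 0.913) and KCNC4, SRSF6 and CCNL2 over 13 (0.856, 0.844 and 0.788). For FBP1 they were PCMTD1, LCAT and SFTPC over 14 cows (r 0.956, 0.945 and 0.944) and STAC3, MAGEF1 and CDK2AP2 over 13 (0.961, 0.957 and 0.957), with no gene in common, so which genes resembled FBP1 depended on healthy cow 7. Since FBP1 separates the groups, genes chosen this way tend to separate them too, and their differences are not given.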

How the data were processed

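The authors deposited 1 log2 ratio of the dye channels for each spot; scanner intensities were not used here, and the sources used here do not give the arrays' normalisation. The sign was turned on the arrays whose label puts liver in Cy3, which makes liver over reference the likely direction. For 1 array of ketotic cow 1 the dye fields name Cy5 for both channels; its title and source text, which put liver in Cy5, were used. Values at the ceiling of 16.61 and empty cells were read as missing. Each array was centred on its median, neighbouring spots were averaged to probes, both arrays of a cow were required, a probe needed 5 cows per group, and a gene was the mean of its probes. Symbols came from the platform annotation, updated through gene IDs with the RefSeq table. The array's genome build is not named, so no coordinates are given.

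Groups were compared with limma 3.58.1 (R 4.3.3; lmFit, eBayes, 1 value per cow, two-sided) with Benjamini-Hochberg adjustment over all genes and a threshold of 0.05; standard errors are limma's moderated ones. Single genes and pairs were tested by exact permutation over the 3432 ways to choose 7 of 14 cows (1716 without healthy cow 7). The fit was checked on simulated data. The enzymes, gene lists and alternatives were chosen with earlier results of these data known. Genes were named by rule: the 3 enzymes, set genes of the pathway, up to 4 passing genes of each list and direction by smallest p (or the smallest p where none passed), and the 3 most correlated genes; GAPDH, ALDOA, PGK1, MDH2, GOT1, GOT2, MMUT, GK, GCGR, MCCC1, APOB and the markers of other cells were named after their values were seen. The labels give no batch, and the number of arrays limits precision. Figures were drawn with matplotlib 3.10.9.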

Additional observations from a re-analysis of the deposited data

Results flagged for a closer look

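Among the 40 groups of 7 cows searched over the named genes, 8 held a cow far from the other 6; chance gives about 1 in 20, or 2. Of the 8, 5 were healthy cow 7: its log2 ratio was 1.74 for FBP1 (next 4.15), 0.88 for PC (next 2.24), 0.52 for PCK2 (next 1.67), 1.12 for SLC37A4 (next 3.13) and, on the high side, 0.27 for PRKAB1 (next -0.37). PCK1 was also lowest in this cow, at 4.27, without meeting the criterion. The other 3 were PC in ketotic cow 7 (2.43, next 3.05), PGAM1 in ketotic cow 5 (-3.48, next -2.67) and ATF2 in healthy cow 4 (0.34, next -0.34).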

How the results depend on the processing

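Of 38 alternatives, 14 left out 1 cow. FBP1 was positive in 38 and passed in 32, and PC was positive in 38 and passed in 7. PCK1 was positive in 32 and passed in 1, with a negative sign. The cause of each change below was not tested. FBP1 no longer passed with one spread (0.73), liver in Cy5 alone (1.98), the missing-spot covariate (1.29), the spread covariate (1.03), hepatocyte markers as the zero (1.07) or one spread without healthy cow 7 (0.34). PC passed with arrays centred on probes present on every array (0.92, adjusted p 0.0450; 0.68 without healthy cow 7), array weights (0.60), 28 arrays with the cow as a random block (0.79) and healthy cow 7 from its Cy3 array (0.67). Its difference shrank to 0.26 with one spread (limma adjusted p 0.663) and 0.36 with quantile normalisation (0.458). Without healthy cow 7 it was 0.017 with one spread (0.970), 0.10 as deposited (0.696) and 0.19 with quantile normalisation (0.613). PCK1 turned negative with one spread (-0.68; -0.89 without healthy cow 7), deposited values without that cow (-0.13), Cy5 without it (-0.0019), hepatocyte markers as the zero (-0.0032) and the spread covariate (-0.17).

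FBP1 less PC no longer passed with one spread (0.47; 0.32 without healthy cow 7) or Cy3 alone (0.76). PC less PCK1 passed with one spread (0.94; 0.91 without healthy cow 7) and turned negative with Cy3 alone (-0.066) or quantile normalisation without that cow (-0.084). Among other genes, one spread turned APOA1 (-0.027; -0.090 without healthy cow 7) and ALB (-0.073), PPARGC1A turned with deposited values without that cow (-0.12) and hepatocyte markers as the zero (-0.17), and SLC37A4 ran from -0.50 to 0.016 as single cows were left out.

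The 929 calls over all genes (64 higher, 865 lower) became 2477 with values as deposited (3264 without healthy cow 7), 616 with shared-probe centring (123 higher, 493 lower), 550 with one spread (1466), 562 with quantile normalisation, 12 with Cy5 alone (201), 1409 with array weights, 168 and 7 with the missing-spot and spread covariates, and 3 with hepatocyte markers as the zero. The median difference of all genes was -0.58 as deposited and -0.05 with shared-probe centring, so signs near these values depend on the zero. The 8 gluconeogenesis calls became 2 with one spread or the missing-spot covariate, 0 with Cy5 alone, the spread covariate or hepatocyte markers as the zero, 13 probes with each probe alone, and 14 with deposited values without healthy cow 7. Leaving out 1 cow gave ranges of 1.28 to 1.84 for FBP1, 0.55 to 0.90 for PC, 0.31 to 0.83 for PCK1, 0.71 to 1.05 for FBP1 less PC, 0.97 to 1.21 for FBP1 less PCK1, -0.0025 to 0.36 for PC less PCK1, 652 to 1368 genes and 7 to 10 gluconeogenesis genes. No paired analysis was possible because the cow numbers only name the cows.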
